A study of Arabidopsis thaliana with 2 samples.

Results

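JAZ genes encode the JASMONATE ZIM-DOMAIN proteins, repressors of the response to the plant hormone jasmonate. The 10 genes JAZ1, JAZ2, JAZ3, JAZ5, JAZ6, JAZ7, JAZ8, JAZ9, JAZ10 and JAZ12 were taken by locus identifier from a deposited table of 27416 genes, and all 10 were found there. JAZ4, JAZ11 and JAZ13 are not among the 10 and are given with the other TIFY genes. Sums, orders and shares of the family refer to the 10 only. The table came from RNA-seq on intact Columbia seedlings of Arabidopsis thaliana, harvested at day 10 after germination. Control seedlings were compared with seedlings given flg22, a flagellin peptide that plants sense through the receptor kinase FLS2. The dose was 1 μmol/L and the time 4 h. Both groups consist of a single library, pooled from 3 biological replicates, so differences could not be set against replicate spread and were not tested. No mutant, transgene or other agent is named in the labels for either group.

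JAZ proteins bind MYC-type transcription factors and hold them inactive by recruiting the adaptor NINJA and co-repressors of the TOPLESS family. When the active hormone, jasmonoyl-isoleucine, accumulates, it joins a JAZ protein to the F-box receptor COI1, and the repressor is ubiquitinated and degraded. MYC factors then activate their targets, and several JAZ genes are themselves such targets, so that synthesis of new repressor closes a feedback loop. The ability of a JAZ protein to be captured by COI1 depends on the Jas domain near its C-terminus, which begins with a short degron sequence.

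The degron separates the members, and its coding sequence is shown for that reason. Each line holds 20 codons of the Jas domain, read 5′ to 3′ on the coding strand from the RefSeq annotation of TAIR10.1. Capitals mark the 6 codons at the position of the degron, also in members that lack a recognisable degron there.
JAZ1: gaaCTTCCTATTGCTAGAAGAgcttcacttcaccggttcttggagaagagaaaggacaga
JAZ2: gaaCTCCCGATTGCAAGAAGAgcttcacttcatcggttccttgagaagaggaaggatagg
JAZ10: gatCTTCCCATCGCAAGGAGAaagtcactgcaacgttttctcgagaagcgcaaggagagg
JAZ12: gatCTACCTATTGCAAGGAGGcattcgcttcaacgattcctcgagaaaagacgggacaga
JAZ3: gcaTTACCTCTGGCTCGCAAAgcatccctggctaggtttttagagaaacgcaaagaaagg
JAZ9: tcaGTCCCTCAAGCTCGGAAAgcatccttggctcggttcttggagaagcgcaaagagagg
JAZ5: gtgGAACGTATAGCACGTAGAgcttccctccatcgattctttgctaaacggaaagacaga
JAZ6: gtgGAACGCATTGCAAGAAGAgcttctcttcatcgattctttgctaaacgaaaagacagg
JAZ7: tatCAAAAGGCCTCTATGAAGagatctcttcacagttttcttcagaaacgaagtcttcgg
JAZ8: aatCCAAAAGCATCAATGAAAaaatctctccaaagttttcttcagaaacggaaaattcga

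Translated, JAZ1, JAZ2, JAZ10 and JAZ12 encode the same 6 degron residues, the canonical form. JAZ3, JAZ5 and JAZ6 share 4 of the 6 residues with JAZ1, and JAZ9 shares 3. JAZ7 and JAZ8 share 0, and over the 20 residues they match JAZ1 at 8 positions. JAZ8 is known as a repressor that resists hormone-triggered degradation because it lacks this degron. The proteins also differ in an EAR-type motif (leucine at every other residue over 5 residues), which can recruit TOPLESS without NINJA. A match was found in JAZ5 and JAZ6, at their last 5 residues, and in JAZ7 and JAZ8, from residues 26 and 9. No match was found in the other 6 proteins.

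Across whole proteins the members formed 4 pairs in which each was the other's closest relative. Identity over the shorter protein was 65.1% for JAZ1 and JAZ2, 61.8% for JAZ7 and JAZ8, 57.2% for JAZ5 and JAZ6, and 38.4% for JAZ3 and JAZ9. The longest run of identical bases between the joined exons of a pair was 20 bases or fewer, which bears on how easily reads of one gene could be given to the other. JAZ10 and JAZ12 had no such partner.

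The depth was 21414567 counted reads for control and 24621440 for flg22. Levels are given as RPKM as deposited, which are reads scaled for the listed gene length and the library total. A fold is the ratio of a gene's shares of all counted reads, without a constant, followed in parentheses by its exact 95% interval, which covers counting error only. A log2 ratio is log2 of (flg22 RPKM + 1) over (control RPKM + 1), a scale on which low genes appear to differ less than they do. FRK1 (AT2G19190), a receptor-like kinase gene widely used to monitor flg22 treatment, had 1.01 RPKM in control and 85.7 RPKM in flg22 seedlings, the direction the labels give. The tissue label was checked on marker genes. The shoot markers RBCS1A, LHCB1.3 and RCA summed to 13255 RPKM for control and 3835 RPKM for flg22, and 3 of 3 were at least 2-fold lower (log2 ratios from -2.54 to -1.14). The root markers PYK10, CASP1 and EXPA7 summed to 775 and 577 RPKM, with log2 ratios from -0.56 to 0.84. The seed markers CRA1 and SESA3 had 69 and 7 reads together, with SESA3 at 0 in both, and the flower markers AP1, AG and PI together had 15 and 54 reads. In whole seedlings, fewer cells of a type and less RNA per cell cannot be told apart, and the part of the lower shoot markers in the JAZ values was not tested.

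JAZ transcripts as a family were more abundant with flg22, and JAZ1 made up most of the difference. Summed over the 10 genes, the level was 86.5 RPKM for control and 385 RPKM for flg22. The underlying reads were 3685 and 16717, a ratio of 3.95-fold (3.81 to 4.09). Without JAZ1 the ratio was 2.37-fold (2.27 to 2.47). On the log2 scale, 6 of the 10 members were at least 2-fold higher, 4 lay within 2-fold and 0 were at least 2-fold lower. For comparison, 18724 genes averaged 1 RPKM or more over both libraries, of which 11.3% were at least 2-fold higher and 8.27% at least 2-fold lower. The median log2 ratio was 1.44 over the 10 members and -0.03 over all 18724 genes. JAZ5, JAZ7, JAZ8 and JAZ10 were under 1 RPKM in the control library and passed this filter only through the flg22 library. Of these 4 members, 3 were at least 2-fold higher, as were 383 of all 566 genes past the filter and under 1 RPKM in the control library. Of the 6 members at 1 RPKM or more in both libraries, 3 were at least 2-fold higher. For comparison with these 6, of all 18724 genes past the filter 566 were under 1 RPKM for control and 393 for flg22. Of the 2111 genes at least 2-fold higher, 383 were among the 566. A higher gene past the filter cannot be under 1 RPKM for flg22, so the rest of the 2111 reached 1 RPKM in both. They made up a smaller share of such genes than the 3 of 6 members.

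**Figure D1:**
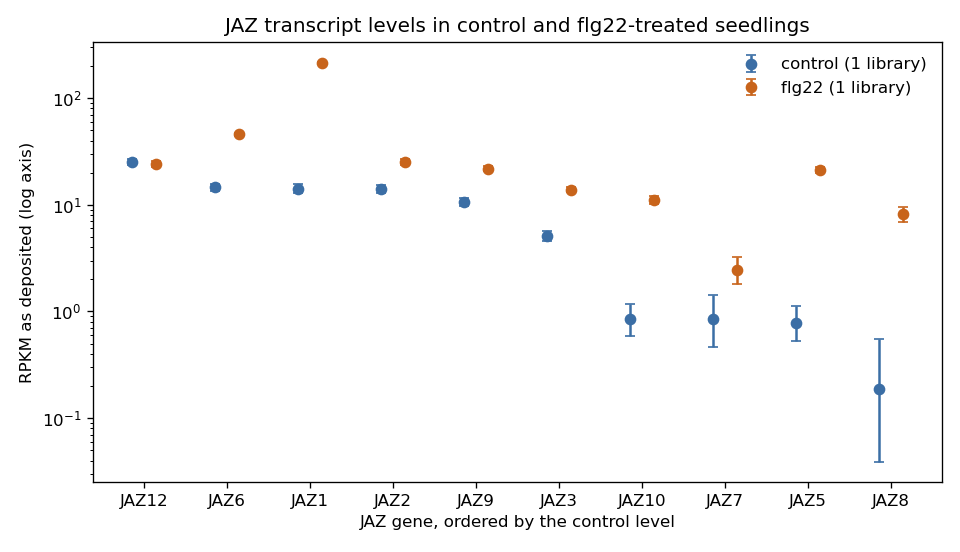
RPKM as deposited (log axis) of each JAZ gene in the control library (blue) and the flg22 library (orange), with exact 95% counting intervals as bars. The genes fall into 6 with control levels from 5.11 to 25.2 RPKM and 4 with control levels under 1 RPKM, and only JAZ12 has its flg22 point below its control point.

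JAZ1 (AT1G19180) is a founding member of the family and a commonly used marker of the jasmonate response. It was at 14.2 RPKM (464 reads) in the control library and 212 RPKM (7951 reads) in the flg22 library. Its ratio was 14.9-fold (13.6 to 16.4), and its log2 ratio of 3.81 was the 149th highest of the 18724 genes. With flg22 JAZ1 had the highest level of the family.

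JAZ2 (AT1G74950), the closest relative of JAZ1 among the 10, is known for its role in guard cells, where it controls stomatal responses to bacteria. It was at 14.1 RPKM (563 reads) in the control library and 25.1 RPKM (1155 reads) with flg22. Its ratio was 1.78-fold (1.61 to 1.98), so the interval lay below 2-fold, and its log2 ratio was 0.79. The control levels of JAZ1 and JAZ2 had overlapping counting intervals, whereas with flg22 JAZ1 was at 8.43 times the level of JAZ2. These level ratios depend on the gene lengths. With the joined exons of RefSeq as lengths, JAZ2 was at 1.59 times the level of JAZ1 in the control library and JAZ1 at 5.25 times that of JAZ2 with flg22. The fold of JAZ1 exceeded that of JAZ2 by a factor of 8.35 (7.26 to 9.61).

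JAZ5 (AT1G17380) and JAZ6 (AT1G72450) form the pair with the EAR-type motif at the C-terminus. JAZ5 was at 0.786 RPKM (29 reads) in the control library and 21.1 RPKM (897 reads) with flg22. JAZ6 was at 14.6 RPKM (702 reads) and 45.8 RPKM (2537 reads). JAZ5 was 26.9-fold higher (18.6 to 40.4) and JAZ6 3.14-fold higher (2.89 to 3.42). The JAZ6 level was 18.5 times that of JAZ5 in the control library and 2.17 times with flg22, so the pair drew together. With the joined exons as lengths these level ratios were 25.4 and 2.97. The folds differed by a factor of 8.56 (5.85 to 12.97).

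JAZ7 (AT2G34600) and JAZ8 (AT1G30135) form the pair without a recognisable degron and were the lowest of the family with flg22. JAZ8 had 3 reads in the control library (0.188 RPKM) and 151 with flg22 (8.21 RPKM). Its ratio of 43.8-fold was the highest point estimate of the family, with a range of 14.7 to 215 because of the 3 control reads. JAZ7 had 14 reads (0.842 RPKM) and 47 reads (2.46 RPKM), a ratio of 2.92-fold (1.58 to 5.74), which spans 2-fold. In the control library the counting intervals of JAZ7 and JAZ8 overlapped, and with flg22 JAZ8 was at 3.34 times the level of JAZ7. The folds differed by a factor of 14.99 (3.89 to 83.5).

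JAZ3 (AT3G17860), identified through a dominant jasmonate-insensitive mutant, and its relative JAZ9 (AT1G70700) differed less. JAZ3 was at 5.11 RPKM (356 reads) in the control library and 13.9 RPKM (1113 reads) with flg22. JAZ9 was at 10.7 RPKM (526 reads) and 21.8 RPKM (1232 reads). JAZ3 was 2.72-fold higher (2.41 to 3.07) and JAZ9 2.04-fold (1.84 to 2.26), with log2 ratios of 1.29 and 0.96. On the log2 scale JAZ3 was thus the nearest member above the 2-fold limit and JAZ9 the nearest below it. The factor between their folds was 1.33 (1.14 to 1.57).

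**Figure D2:**
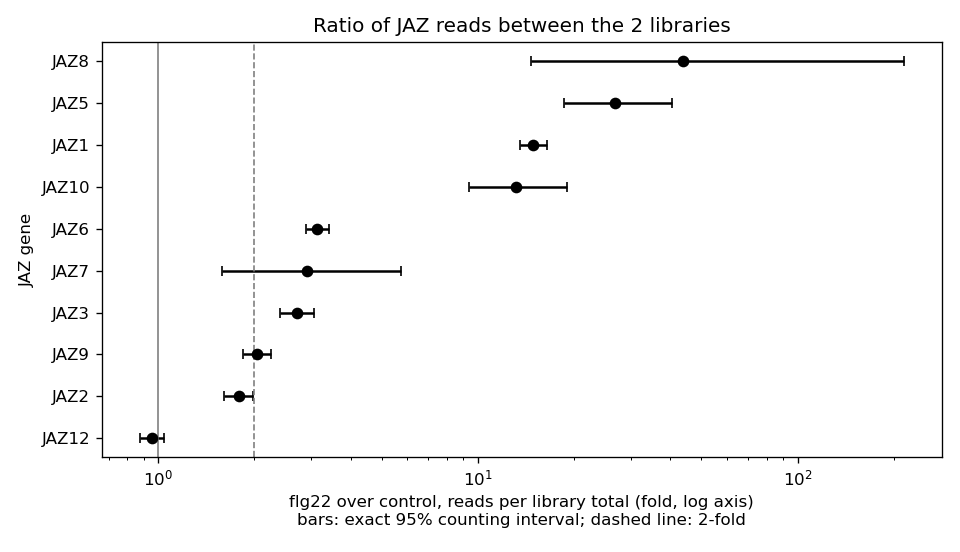
Ratio of flg22 to control in reads per library total (fold, log axis) for each JAZ gene, with exact 95% counting intervals; the solid line marks equal shares and the dashed line 2-fold. JAZ8, JAZ5, JAZ1 and JAZ10 lie between 13.1-fold and 43.8-fold, and the other 6 members lie between 0.957-fold and 3.14-fold.

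JAZ10 (AT5G13220) is known for splice forms that lose part of the Jas domain and resist degradation, and the annotation lists 7 coding transcripts for it, more than for any other member. It was at 0.843 RPKM (36 reads) in the control library and 11.1 RPKM (543 reads) with flg22, a ratio of 13.1-fold (9.36 to 18.9). Counts were per gene, so the splice forms were not told apart. JAZ12 (AT5G20900) was at 25.2 RPKM (992 reads) and 24.1 RPKM (1091 reads), a ratio of 0.957-fold (0.877 to 1.04). JAZ12 was the member with the highest control level, and its interval included equality. On the opposite strand, the protein-coding gene AT5G20910, with 284 and 586 reads, overlaps JAZ12 by 28 bases. Annotated long noncoding RNAs overlap JAZ12 by 211 bases and JAZ10 by 71 bases, also on the opposite strand. Whether counting used strand is not stated, so reads of overlapping genes cannot be told apart.

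The order of the members changed between the libraries. In the control library JAZ12 was highest, followed by JAZ6, JAZ1 and JAZ2, whose neighbouring intervals overlapped, and then by JAZ9 and JAZ3. JAZ10, JAZ7, JAZ5 and JAZ8 came last, and each overlapped the one above it except JAZ10, which lay below JAZ3. With flg22 the order was JAZ1, JAZ6, JAZ2, JAZ12, JAZ9, JAZ5, JAZ3, JAZ10, JAZ8 and JAZ7. In it, JAZ2 and JAZ12, JAZ12 and JAZ9, and JAZ9 and JAZ5 had overlapping intervals. Both orders depend on the gene lengths. With the joined exons of RefSeq as lengths, JAZ2, JAZ6, JAZ9 and JAZ1 stood at places 2, 3, 4 and 5 in the control library. With flg22, JAZ12 then stood at place 3, JAZ2 at place 4, JAZ3 at place 6 and JAZ5 at place 7.

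JAZ1 made up 16.4% of the summed RPKM of the family in the control library and 54.9% with flg22. Its share of the family's reads was 12.6% (exact binomial interval 11.5% to 13.7%) and 47.6% (46.8% to 48.3%). JAZ12, whose own level was nearly equal in both libraries, made up 29.2% and 6.27% of the summed RPKM. The shares of JAZ2, JAZ3, JAZ6, JAZ7 and JAZ9 were also smaller with flg22, although their levels were higher. The 4 members under 1 RPKM in the control library each held under 1% of the control sum, and with flg22 JAZ5 held 5.49%, JAZ10 2.87%, JAZ8 2.13% and JAZ7 0.639%. These levels rest on the listed gene lengths, which were 0.771 (JAZ5) to 1.70 (JAZ12) times the joined exons in RefSeq. With the joined exons instead, the JAZ1 share was 10.8% and 46.8%, the JAZ12 share was 38.6% and 10.7%, and JAZ1 stood at place 5 in the control library and at place 1 with flg22.

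**Figure D3:**
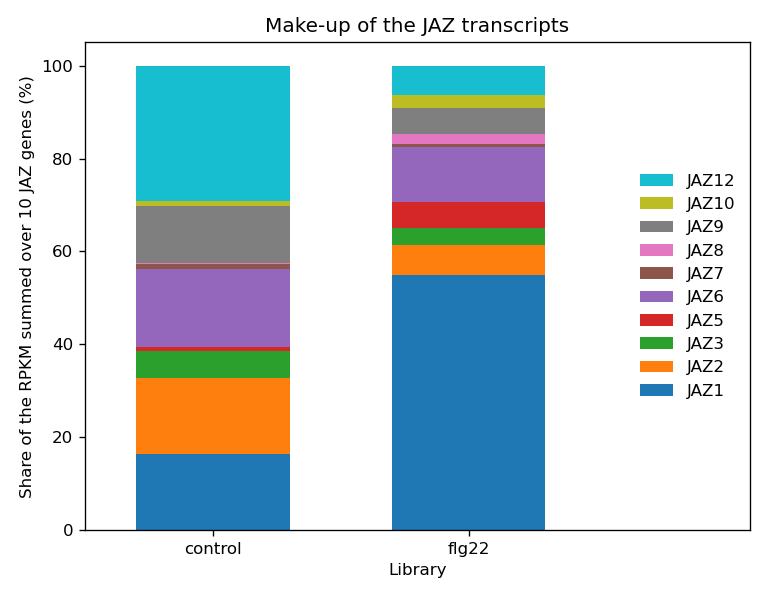
Share of the RPKM summed over the 10 JAZ genes (%) held by each gene in the control library and the flg22 library, drawn as stacked bars. The JAZ1 share is 16.4% for control and 54.9% for flg22, and the JAZ12 share is 29.2% and 6.27%.

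The authors' deposited table also compares the 2 libraries and describes those libraries rather than the conditions. In the authors' deposited table, 1 of the 10 members had a false discovery rate (FDR) below 0.05, and 0.811% of the 23414 genes with a value were higher at that limit. That member was JAZ5, for which the authors' deposited table gives a log2 fold change of 4.79 and an FDR of 0.0249. For JAZ1, JAZ8 and JAZ10 the authors' deposited table gives FDR values of 0.0701, 0.0926 and 0.161, and for the other 6 members 1.

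MYC2 binds the G-box (CACGTG), a palindrome found before many jasmonate-responsive genes. The stretches that hold it are shown because several JAZ genes are known targets of MYC factors. In the 500 bases before the annotated gene start, 6 of the 10 members held at least 1 G-box, against 9.46% of 26713 genes. Coordinates are of TAIR10.1, sequences run 5′ to 3′ on the strand of the gene, and capitals mark the G-box.
JAZ2, chr1:28150480-28150539, minus strand: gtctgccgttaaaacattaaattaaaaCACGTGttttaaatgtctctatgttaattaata
JAZ3, chr3:6119540-6119599, plus strand: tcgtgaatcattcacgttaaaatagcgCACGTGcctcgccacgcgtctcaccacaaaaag
JAZ3, chr3:6119598-6119657, plus strand: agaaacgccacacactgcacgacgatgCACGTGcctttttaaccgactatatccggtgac
JAZ6, chr1:27277008-27277062, minus strand: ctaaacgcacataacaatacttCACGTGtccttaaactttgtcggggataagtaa
JAZ7, chr2:14572969-14573028, plus strand: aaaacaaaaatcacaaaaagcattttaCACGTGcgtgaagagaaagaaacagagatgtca
JAZ8, chr1:10596315-10596351, plus strand: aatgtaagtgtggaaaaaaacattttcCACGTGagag
JAZ9, chr1:26654136-26654195, plus strand: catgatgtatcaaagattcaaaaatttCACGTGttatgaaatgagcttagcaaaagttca

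The G-box began 10 bases before the gene start in JAZ8, 34 in JAZ7, 66 in JAZ2, 82 and 140 in JAZ3, 366 in JAZ9 and 478 in JAZ6. JAZ1 held none in this window, because RefSeq lists a transcript that starts further upstream. A G-box was present 283 bases before the JAZ1 start codon and 26 bases before the start of a second JAZ1 transcript.
JAZ1, chr1:6622017-6622046, plus strand: aacaaaataaaaCACGTGttttttatacca

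Counted in the 1000 bases before the start codon, 7 of the 10 members held a G-box, against 15.3% of 26709 genes. JAZ5, JAZ10 and JAZ12 held none in that window. In the 1000 bases before the gene start, 8 members held one, JAZ1 and JAZ5 among them, and JAZ10 and JAZ12 did not, against 14.9% of genes. Members with and without a G-box both had high and low ratios, and no relation between the motif and the ratio was tested. The variant AACGTG, searched on both strands, was found in the 500 bases before JAZ3, JAZ5, JAZ6 and JAZ12, against 13.6% of genes. The W-box core TTGAC, bound by WRKY factors and searched on both strands, was found before 7 members and before 67.5% of genes. The GCC-box AGCCGCC, bound by ERF factors and searched on both strands, was found before 0 members and before 1.33% of genes. The matches in the 500 bases before the members did not overlap each other. In the 1000 bases before the gene start, AACGTG was found for 9 members, JAZ10 among them, and not for JAZ7, against 23.9% of genes. A match describes these letters only and not binding.

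**Figure D4:**
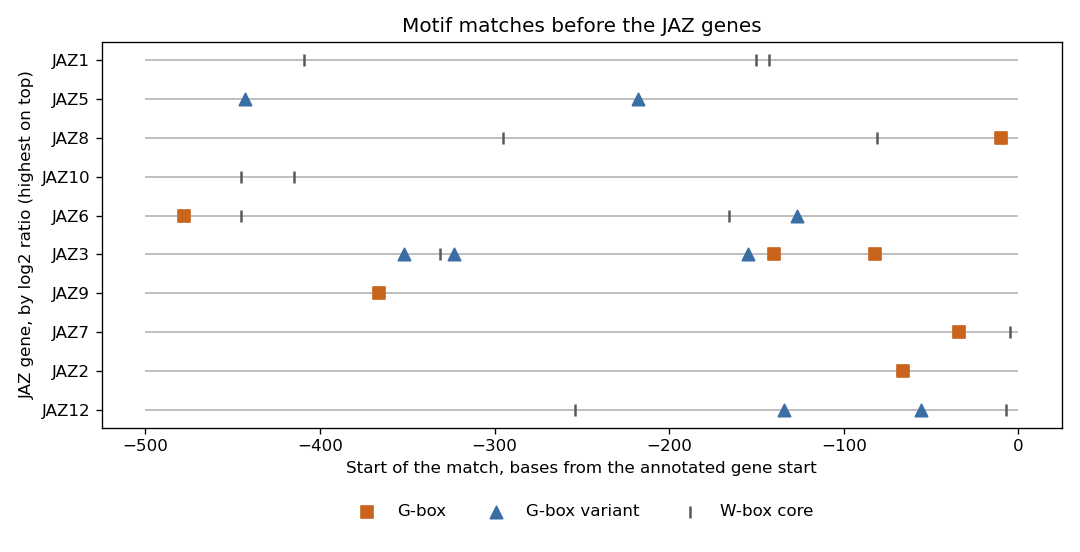
Motif matches in the 500 bases before the annotated start of each JAZ gene; the horizontal axis is the distance from the gene start in bases, and genes are ordered by log2 ratio with the highest on top. Squares are G-boxes, triangles the variant AACGTG and ticks the W-box core. G-boxes appear in 6 genes, and the top 2 genes by log2 ratio, JAZ1 and JAZ5, have none in this window.

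Of 9 remaining genes of the TIFY family, to which JAZ genes belong, 8 passed the filter and lay within 2-fold, with a median log2 ratio of -0.20. The exception to this was JAZ13, which was measured but did not pass the filter. Over all 18724 genes past the filter, 15065 lay within 2-fold. JAZ4 (AT1G48500) had 2.23 RPKM for control and 1.76 RPKM for flg22, and JAZ11 (AT3G43440) at 4.91 and 4.2 RPKM. The PEAPOD genes PPD1 and PPD2, regulators of leaf growth, had log2 ratios of -0.62 and -0.27. TIFY8 had a log2 ratio of -0.54, and the GATA-type genes ZIM, ZML1 and ZML2 had log2 ratios of 0.03, 0.13 and 0.20. JAZ13 (AT3G22275), a repressor with a non-canonical Jas domain, had 1 read in the control library and 30 with flg22, a ratio of 26.1-fold (4.34 to 1065).

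The COI1 receptor complex marks JAZ proteins for degradation. All 5 of its listed genes were within 2-fold, as were 15065 of all 18724 genes past the filter. The median log2 ratio of the 5 was 0.10. COI1 (AT2G39940) itself had 12.8 and 12.6 RPKM, a ratio of 0.984-fold (0.898 to 1.08), and the log2 ratios were 0.32 for ASK1, -0.42 for ASK2, 0.10 for CUL1 and 0.38 for RBX1. The 8 co-repressor genes were also all within 2-fold, with a median log2 ratio of 0.05. NINJA (AT4G28910) was at 26.0 and 30.01 RPKM and TPL (AT1G15750) at 33.1 and 32.2 RPKM. TPR3, at a log2 ratio of 0.63, was the highest of this list, and TPR4, at -0.40, the lowest.

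The list of bHLH transcription factors that JAZ proteins bind, together with MED25, held 9 genes, of which 7 passed the filter. By the 2-fold limit 1 was higher, MYC2, and 0 were lower, against 11.3% and 8.27% of all genes past the filter. MYC2 (AT1G32640), the main activator of the wound branch of the response, was at 14.8 RPKM (689 reads) in the control library and 46.8 RPKM (2507 reads) with flg22, 3.16-fold higher (2.91 to 3.45). Its partners MYC3 (AT5G46760) and MYC4 (AT4G17880) had ratios of 0.983-fold (0.92 to 1.05) and 0.871-fold (0.768 to 0.988). JAM1, JAM2 and JAM3, which compete with MYC factors as repressors, had log2 ratios of 0.68, 0.34 and 0.01, and the Mediator subunit gene MED25 was at 0.08. MYC5 (7 reads and 0 reads) and BHLH14 (8 and 4 reads) did not pass the filter. Of 20 other genes listed as coding for factors bound by JAZ proteins, including DELLA proteins, 14 passed the filter, of which 0 were higher and 2 lower by 2-fold or more. Over all genes past the filter, 11.3% were higher and 8.27% lower by that limit. The list's median log2 ratio was -0.46. The genes with the largest differences were the DELLA gene GAI (AT1G14920), 3.01-fold lower (2.79 to 3.25), the cold-response regulator gene ICE2 (AT1G12860), 2.72-fold lower (2.38 to 3.11), and the ethylene-response regulator gene EIL1 (AT2G27050), 1.94-fold lower (1.82 to 2.06).

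Jasmonate metabolism was mixed for synthesis and mostly higher for inactivation. Of 16 synthesis and transport genes 15 passed the filter. By the 2-fold limit 6 were higher and 0 lower, against 11.3% and 8.27% of all genes past the filter. The median log2 ratio of these synthesis and transport genes was 0.47. Of the 6, LOX4 was under 1 RPKM in the control library. The largest differences were those of the lipoxygenase genes LOX4 and LOX3 (AT1G17420) and of the allene oxide cyclase gene AOC3 (AT3G25780), with log2 ratios of 4.05, 2.53 and 2.70. JAR1 (AT2G46370), whose enzyme conjugates jasmonate to isoleucine, had a log2 ratio of -0.49; it was chosen after its values were seen. Of 10 inactivation genes 9 passed the filter. Of these, 7 were past 2-fold upwards and 0 downwards, against the same 11.3% and 8.27% of all genes, and the list's median log2 ratio was 1.93. CYP94B3, JOX3 and JOX4, 3 of the 7, were under 1 RPKM in the control library and passed only through the flg22 library. JOX1 (AT3G11180), a further hydroxylase gene, had 16 and 2 reads, 9.20-fold lower (2.16 to 82.5), and did not pass the filter; it and JOX3 were chosen after their values were seen. CYP94B3 and CYP94C1 (AT2G27690), which oxidise the active hormone, had log2 ratios of 4.09 and 3.79. JOX4 (AT2G38240), a jasmonate hydroxylase gene, had 0 and 569 reads. With the control count of 0 set to a floor of 3 reads, it was at least 165-fold higher, and the lower limit of its exact interval was 134-fold.

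Output genes of the pathway were split. Of 15, 12 passed the filter, of which 5 exceeded 2-fold upwards and 0 downwards, against 11.3% and 8.27% of all genes past the filter. The median of the list was 0.90 on the log2 scale. Of the 5, 3 were under 1 RPKM in the control library and passed only through the flg22 library, among them TAT3 and NATA1. Of all 566 genes past the filter and under 1 RPKM in the control library, 383 were at least 2-fold higher. With 5 RPKM added, or at a mean of at least 5 RPKM, 2 genes of the list were past the limit. TAT3 (AT2G24850), a tyrosine aminotransferase gene, was 14.1-fold higher (9.78 to 20.9). NATA1 (AT2G39030), an ornithine acetyltransferase gene, had 3 and 96 reads, a ratio of 27.8-fold (9.24 to 137), and NAC019 (AT1G52890), a transcription factor gene downstream of MYC2, was 5.93-fold higher (4.37 to 8.2). Classical markers of the pathway were added after their values were seen. VSP1 (AT5G24780) and VSP2 (AT5G24770) of the MYC branch were at 5.74 and 13.3 RPKM in the control library and 11.6 and 8.97 RPKM with flg22. PDF1.2A (AT5G44420) of the ERF branch had 28 and 24 reads. Other genes of the list, also named after their values were seen, differed from it. ERF1B (AT3G23240), under 1 RPKM in the control library, had 8 and 52 reads, 5.65-fold higher (2.67 to 13.8). ORA59 (AT1G06160) had 149 and 188 reads. THI2.1 had 2 and 12 reads and PDF1.2B 2 and 1 reads, and neither passed the filter.

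**Figure D5:**
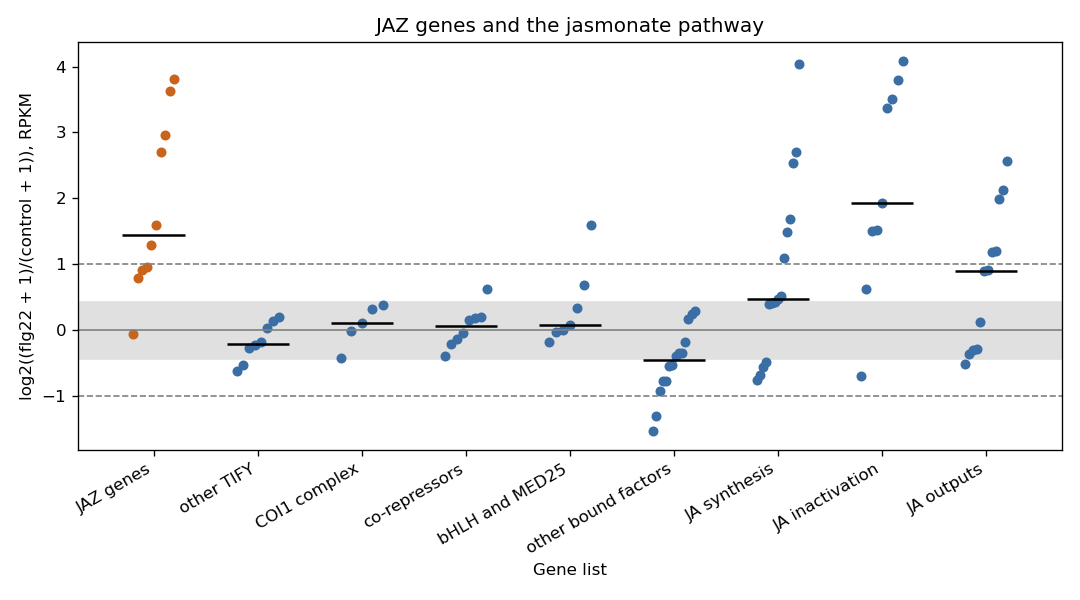
Log2 ratio of flg22 over control after adding 1 RPKM for each gene past the filter in the JAZ list (orange) and 8 further lists (blue); black bars are list medians, the grey band runs from -0.44 to 0.42, the quartiles of all 18724 genes, and dashed lines mark 2-fold. The JAZ median is 1.44 and that of the inactivation list 1.93, while the medians for other TIFY genes, the COI1 complex, co-repressors and bHLH factors lie between -0.20 and 0.10.

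The genes closest to JAZ1 in level were sought among the 18724 genes by the distance between log2(RPKM + 1) values over the 2 libraries. They were the peroxidase gene Prx37 (AT4G08770), at 13.8 and 204 RPKM and a distance of 0.06, the calmodulin-like gene CML38 (AT1G76650), at 13.7 and 177 RPKM and a distance of 0.26, and AT5G19240, at 11.8 and 189 RPKM and a distance of 0.30. With 2 libraries this likeness holds no more than a level and a ratio.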

How the data were processed

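Messenger RNA was sequenced from 1 control and 1 flg22 library, each a pool of 3 biological replicates, per the labels. The authors deposited read counts and RPKM for 27416 genes, and beside them log2 fold changes with p-value and FDR columns, per the file headers. Bowtie, TopHat, DESeq and TAIR10 are named in the submitters' processing notes, and the counting rule is not given in the sources used here. Deposited RPKM equalled reads per listed length and column total to within 7.24e-06%. A further 2 columns of per-sample values were not used. The log2 ratio after adding 1 RPKM was computed where the 2 libraries averaged 1 RPKM or more. Intervals are exact conditional binomial or Poisson intervals at 95%, covering counting error only. With 1 library per group, no test was possible. Levels come from Python 3.11.15 and SciPy 1.17.1, and TMM factors from edgeR 4.0.16. The steps were run on simulated Poisson counts with known folds. Those counts hold no spread between replicates, so the run checks the computation only. Motifs and coding sequences were read from the RefSeq genome and annotation of TAIR10.1 by locus identifier. Those coordinates are of TAIR10.1, and the deposited table holds none. Of the 27416 identifiers, 26719 were found in RefSeq. Members and the 122 genes in 15 lists were chosen with earlier results of these data known. The naming rule covered the 10 JAZ genes, every gene of the other TIFY, receptor, co-repressor and bHLH lists, the 3 largest differences past the filter of each further list, FRK1 and the 3 genes nearest to the highest JAZ gene. Seed and flower markers and the loci overlapping JAZ genes were named as checks outside that rule, and the text says which pathway genes were chosen after their values were seen.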

Additional observations from a re-analysis of the deposited data

How the results depend on the processing

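The count of JAZ genes at least 2-fold higher was 6, and between 4 and 8 under 9 alternatives, with 0 lower in each. It was 5 with 5 RPKM added (without JAZ3), 7 with 0.5 RPKM added (with JAZ7), 7 with median-of-ratios scaling (with JAZ9), 5 at a mean of at least 5 RPKM (without JAZ8), 4 at a 4-fold limit and 8 with no added constant (with JAZ7 and JAZ9, chosen after seeing the data), where 13.3% of all genes were higher. The median log2 ratio was 1.13 with 5 RPKM added. Of 60 member values, 13 moved beyond their counting interval, and 0 reversed. A reversal was counted only for members with a log2 ratio of at least 1 in size. The settings used could hardly turn such ratios, so this 0 carries no support. Centring on the reference genes shifted all log2 ratios by -0.14. Over the 8 pathway lists, 19 genes were higher and 2 lower, against 9 and 0 at a 4-fold limit and 1 lower with 5 RPKM added. Over all genes, 2111 were higher and 1548 lower, against 1392 and 830 with 5 RPKM added and 781 and 279 at a 4-fold limit; a larger constant and a higher limit leave fewer genes by construction. Centred on the reference genes, the counts were 1819 and 2040, and the larger of them turned with that scaling. In the control library, 3 to 36 reads behind JAZ5, JAZ7, JAZ8 and JAZ10 limit their ratios. No paired analysis was possible because each group is 1 library, and no replicate could be left out.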
